A study of Mus musculus with 22 samples.

Results

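Promoter H3K27ac and mRNA of chow-fed mouse liver were set side by side, gene by gene, to describe how the acetylation of a promoter relates to the reads of its transcript and which genes depart from that relation. The genes were those whose symbol appears in both the promoter count table and the gene count tables, which held for 23167 of the 23227 genes with mRNA counts. Livers came from wild-type C57BL/6J mice aged 24 weeks that were killed after an overnight fast, and were powdered while frozen. The tested libraries were 3 mRNA libraries and 3 H3K27ac libraries of mice on standard chow, 6 of the 22 libraries in the series. The 3 mRNA and 3 H3K27ac libraries of wild-type C57BL/6J mice of the same age that had 16 weeks of high-fat diet served only as a repeat. The labels do not say that replicates are separate animals, so p-values measure the spread between these libraries.

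H3K27ac, acetylation of lysine 27 on histone H3, is laid down by the acetyltransferases p300 and CBP and marks active promoters and enhancers. Promoters fall broadly into CpG-rich ones, typical of genes used in most cells, and CpG-poor ones, often with a TATA box, which are common among tissue-restricted genes. Hepatocytes devote much of their mRNA to secreted plasma proteins and to enzymes of amino acid, lipid and drug metabolism. A microRNA is cut from a longer primary transcript, so its gene can share a promoter region with a host gene while the mature RNA is too short to enter a standard mRNA library.

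The upstream sequences of 4 genes are given as examples of single promoters and do not stand for their classes. They are the 250 bases before the RefSeq start in GRCm38.p6, 5′ to 3′ on the gene's strand, with each CG dinucleotide in capitals. Alb (serum albumin, chr5:90460620-90460869, plus strand) and Cyp2e1 (an ethanol- and drug-oxidizing cytochrome P450, chr7:140763569-140763818, plus strand) had far more mRNA than other genes with their promoter acetylation, and each has 2 CG in this window. Hnrnpk (an RNA-binding splicing protein, chr13:58402118-58402367, minus strand) was not called and has 30. Fos (a subunit of the AP-1 transcription factor, chr12:85473640-85473889, plus strand) had far less mRNA than the curve gives and has 15. TATAAA begins 31 bases before the Cyp2e1 start and 33 bases before the Fos start, and is not in the windows of Alb and Hnrnpk on this strand.
Alb: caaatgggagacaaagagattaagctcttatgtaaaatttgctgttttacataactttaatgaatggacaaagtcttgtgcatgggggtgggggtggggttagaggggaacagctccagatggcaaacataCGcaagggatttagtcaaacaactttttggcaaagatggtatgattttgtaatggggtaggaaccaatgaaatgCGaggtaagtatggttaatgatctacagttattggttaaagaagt
Cyp2e1: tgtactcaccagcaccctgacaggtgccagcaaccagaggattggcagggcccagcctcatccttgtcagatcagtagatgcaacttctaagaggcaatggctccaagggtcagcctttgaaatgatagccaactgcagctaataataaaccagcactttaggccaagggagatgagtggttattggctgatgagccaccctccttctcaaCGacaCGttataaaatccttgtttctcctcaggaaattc
Hnrnpk: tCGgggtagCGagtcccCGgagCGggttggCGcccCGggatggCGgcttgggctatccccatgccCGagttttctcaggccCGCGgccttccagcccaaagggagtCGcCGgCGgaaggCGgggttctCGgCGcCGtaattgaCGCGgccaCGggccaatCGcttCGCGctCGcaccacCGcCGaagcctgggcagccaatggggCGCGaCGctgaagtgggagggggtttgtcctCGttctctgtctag
Fos: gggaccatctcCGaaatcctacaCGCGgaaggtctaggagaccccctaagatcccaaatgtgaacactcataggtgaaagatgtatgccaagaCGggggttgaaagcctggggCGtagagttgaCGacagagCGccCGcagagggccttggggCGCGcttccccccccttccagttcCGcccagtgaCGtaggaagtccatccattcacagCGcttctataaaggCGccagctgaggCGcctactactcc

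Mature microRNAs are shown because 140 of the 147 microRNA genes tested had acetylated promoters and far fewer mRNA reads than the curve gives. Of the 147, 144 had under 1 mRNA CPM and entered the test only because of their promoter acetylation. The seed, bases 2 to 8, is in capitals, and the RefSeq sequences are in GRCm38.p6. let-7c and let-7b share the seed GAGGUAG, and the other 4 have seeds of their own.
let-7c-5p (Mirlet7c-2, chr15:85706616-85706637, plus strand): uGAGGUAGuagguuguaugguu
let-7b-5p (Mirlet7b, chr15:85707325-85707346, plus strand): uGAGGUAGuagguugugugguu
miR-707 (Mir707, chr7:44849705-44849725, plus strand): cAGUCAUGccgcuugccuacg
miR-339-5p (Mir339, chr5:139369708-139369730, minus strand): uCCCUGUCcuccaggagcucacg
miR-425-5p (Mir425, chr9:108568789-108568811, plus strand): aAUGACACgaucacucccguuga
miR-345-5p (Mir345, chr12:108836989-108837010, plus strand): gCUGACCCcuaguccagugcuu

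The mRNA libraries held 45741794, 19131339 and 19016275 counts and the H3K27ac libraries 4265510, 2376133 and 4964403 promoter counts in chow replicates 1 to 3. Hepatocyte markers were abundant, with Alb at 63457 and the transcription factor Hnf4a, the lowest of the 6, at 1130 CPM (counts scaled to library size) in the mean of the mRNA libraries. Markers of Kupffer cells, stellate cells and sinusoidal endothelium were present, and the listed B cell, T and NK cell and neutrophil markers each averaged under 1 CPM. Of the 10 pancreatic acinar markers, 9 passed the filters, with a median of 94.8 CPM over the 10, and their part in the results was not tested. Whole liver was sequenced, so fewer cells of a type and less RNA per cell cannot be told apart.

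Across the 22220 genes with at least 10 promoter counts over the 3 chow libraries, mRNA and promoter H3K27ac ran together, with a Spearman correlation of 0.756 and a Pearson correlation of 0.649 on log2(CPM + 1). Over the 9 pairs of 1 mRNA and 1 H3K27ac library, the Spearman correlation lay between 0.744 and 0.753. Pairs of mRNA libraries correlated at 0.983 to 0.985 and pairs of H3K27ac libraries at 0.986 to 0.990, so the spread between assays far exceeded that between libraries of 1 assay. These correlations run across genes, which are not independent replicates, and the genes of a pair share their 2 libraries. No transcript lengths were used, so a CPM also carries transcript length when genes are compared with each other.

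The correlation was weaker among genes with mRNA reads. Among the 11704 genes with at least 1 mRNA CPM, the Spearman correlation was 0.386 and the Pearson correlation 0.317. Ranked into 10 groups of 2222 genes by promoter H3K27ac, the lowest group had a median of 2.06 CPM of acetylation, and 4.77% of its genes reached 1 mRNA CPM. The share was 40.9% in group 5, 72.7% in group 6 and 93.4% in group 10. Group 5 had a median of 0.535 mRNA CPM at a median promoter level of 28.8 CPM, and group 6 had 4.54 mRNA CPM at 43.1 CPM. From group 7 to group 10 the median mRNA level was 12.7, 17.6, 23.7 and 31.1 CPM, while the median promoter level was 57.7, 71.6, 87.8 and 116 CPM.

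**Figure D1:**
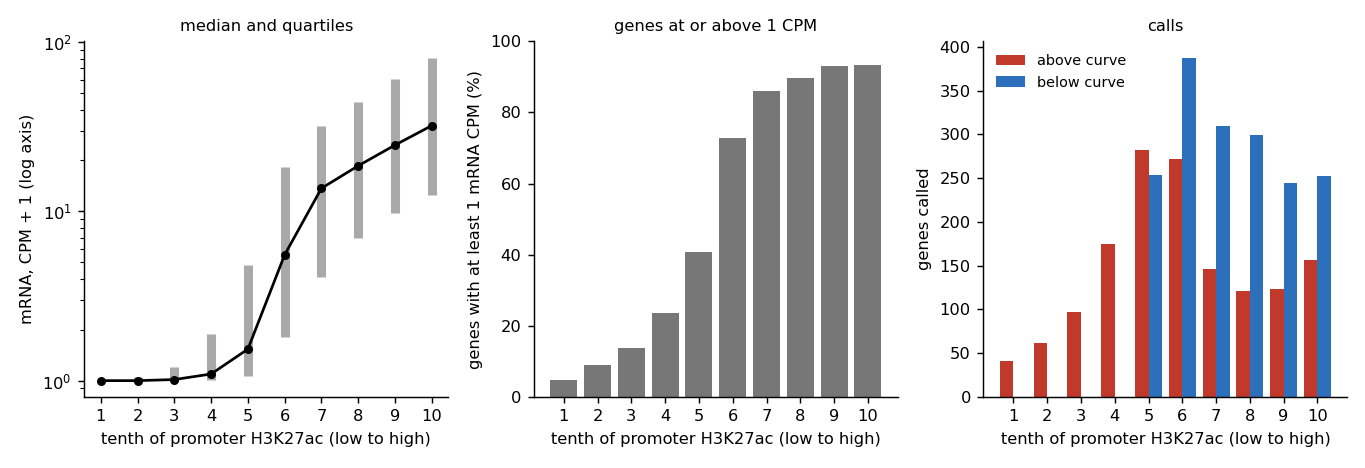
mRNA in 10 equal groups of genes ranked from low to high promoter H3K27ac in chow liver, as the median (points) and quartiles (bars) of mRNA CPM + 1 on a log axis, the percentage of genes with at least 1 mRNA CPM, and the number of genes called above or below the fitted curve. The share of genes at or above 1 CPM climbs from 4.77% to 93.4%, and calls below the curve begin in group 5, where the curve first exceeds 1 CPM.

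The first 100 genes of each scale were largely different, though genes high in mRNA mostly had promoters above the median. Of the 100 genes with the highest mRNA CPM, 28 lay in the top decile of promoter H3K27ac and 29 lay below the median promoter. Their median percentile of promoter H3K27ac was 70.8. Among the 500 genes with the highest mRNA, 186 lay in that decile and 75 below the median. Of these 500, 67 were also among the 500 most acetylated. The 100 most acetylated promoters had a median of 54.6 mRNA CPM, and 2 of these genes were among the 100 with the highest mRNA. Among the 15 most acetylated promoters were those of Rxra, the partner of many liver nuclear receptors, Brd2, a reader of acetylated histones, the transcriptional coregulator genes Zmiz1 and Zmynd8, and Tnrc18. Rxra had 480, 446 and 493 mRNA CPM in the chow replicates and Tnrc18 34.3, 33.0 and 28.6, so promoters of like acetylation differed widely in mRNA while the replicates of each gene lay close.

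A lowess curve of mRNA on promoter H3K27ac gave 0.638 mRNA CPM at a promoter level of 25 CPM, 7.18 at 50, 26.9 at 100 and 53.1 at 200. Each gene's departure is the log2 ratio of its measured mRNA to the level the curve gives at its own acetylation, with a floor of 1 CPM under the predicted level. The curve exceeds that floor from a promoter level of about 29.0 CPM, and genes under it could be called above the curve only. Genes with under 1 mRNA CPM were tested only if their predicted level reached 1 CPM, and could be called below only. Of 13696 genes tested for a departure of more than 8-fold with edgeR's quasi-likelihood fit and glmTreat, 1475 (10.8%) lay above the curve and 1748 (12.8%) below it at a Benjamini-Hochberg adjusted p of at most 0.05. Restricted to the 12174 genes with a predicted level of at least 1 CPM, 7.95% lay above and 14.4% below. Every called gene lay on its side of the curve in all 9 library pairs. limma on log2 values called 998 genes above and 641 below, all of them among the edgeR calls in the same direction. Among genes with at least 10 mRNA counts, edgeR called 899 below.

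**Figure D2:**
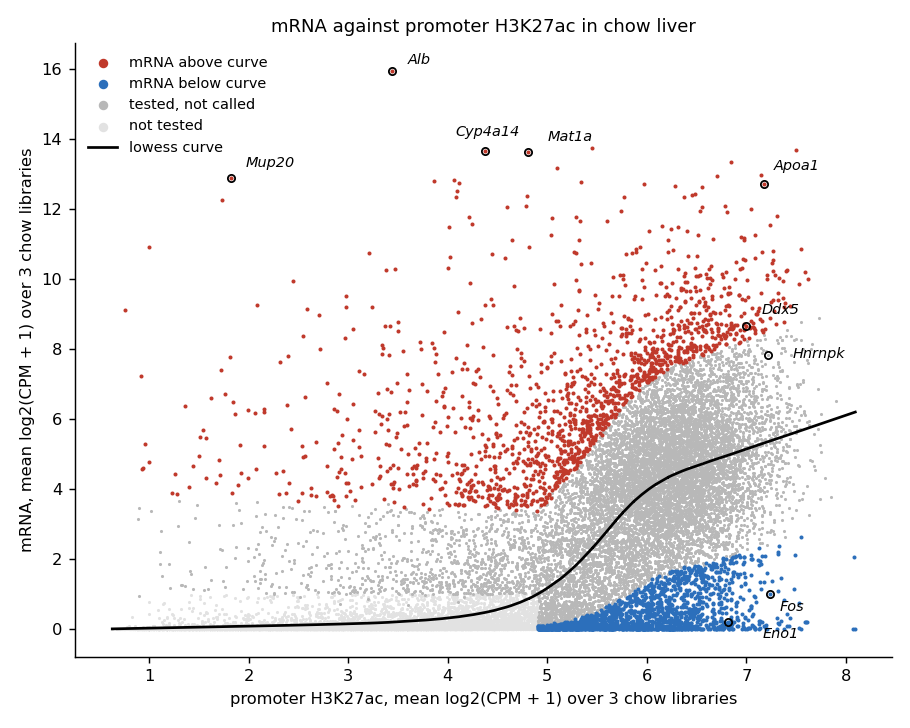
Mean log2(CPM + 1) of mRNA (vertical axis) against promoter H3K27ac (horizontal axis) for 22220 genes, each axis over 3 chow libraries, with the lowess curve in black, genes above it in red and genes below it in blue. Alb stands highest at a promoter level under that of most genes, and Fos and Eno1 lie near the floor at promoter levels of highly acetylated genes.

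Genes above the curve were led by abundant hepatocyte products with weakly acetylated promoters. Alb had 62097, 60323 and 67951 mRNA CPM in the 3 chow libraries, where its promoter carried 8.98, 8.92 and 11.98 CPM of H3K27ac, percentile 23.1 of all promoters past the filter. Its log2 departure from the 1 CPM floor was 15.92 ± 0.18 (SE, n = 3 libraries per assay, edgeR adjusted p = 3.34e-14). Mat1a, which makes the methyl donor S-adenosylmethionine, had 12339, 12617 and 13239 mRNA CPM at 34.3, 20.4 and 28.0 CPM of H3K27ac, a departure of 13.59 ± 0.18. Cps1, the entry enzyme of the urea cycle, had 6852, 7035 and 6771 mRNA CPM at 17.5, 13.2 and 18.7 CPM of H3K27ac, a departure of 12.70 ± 0.14. In each case the mRNA libraries lay close together and far above the predicted level.

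Fasting-responsive and drug-metabolizing cytochrome P450 genes stood beside them. Cyp4a14, an omega-hydroxylase of fatty acids, had 11563, 13829 and 13140 mRNA CPM at 19.6, 18.7 and 21.1 CPM of H3K27ac and a departure of 13.63 ± 0.15. Cyp4a10, of the same subfamily, departed by 12.53 ± 0.16, Cyp2e1 by 12.56 ± 0.15 and Cyp3a11, a broad drug-oxidizing enzyme, by 12.07 ± 0.15. Cyp2e1 had 10338, 9119 and 8273 mRNA CPM against 1.54 CPM predicted. The other leading genes were the vitamin D carrier Gc, the protease inhibitors Mug1, Serpina1b and Serpina1e, the fibrinogen chain gene Fgb, and Mup3, Mup7 and Mup20, with departures of 11.81 to 12.83. The Mup and Serpina1 genes have near-identical copies, so their counts are uncertain in both assays.

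The major urinary protein genes, which encode pheromone carriers secreted by the liver, included leading genes with very few promoter counts. Mup20 had 8337, 6837 and 7716 mRNA CPM at 2.30, 2.12 and 3.25 CPM of H3K27ac, and 11 of the 20 family members stayed under the promoter filter, with 6 of the 9 tested members above the curve. All 9 had a predicted level under 1 CPM, so they could be called above it only. Among all 1522 tested genes with a predicted level this low, 507 were above the curve.

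**Figure D3:**
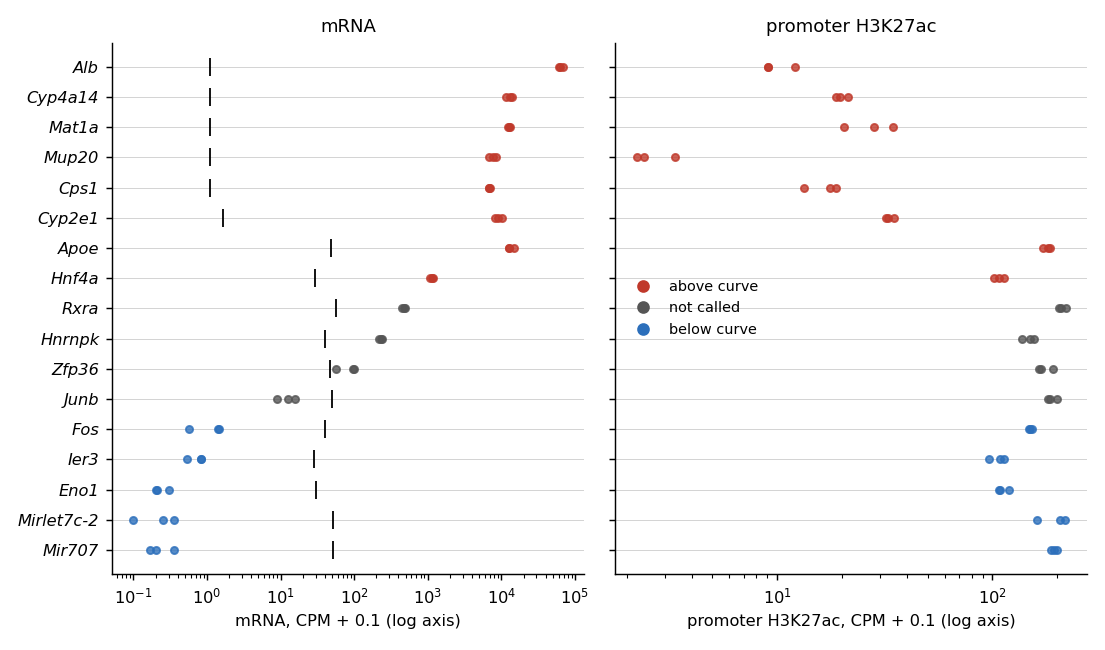
mRNA (left) and promoter H3K27ac (right) of 17 genes in each of 3 chow libraries, as CPM + 0.1 on log axes, with black ticks on the left for the predicted mRNA level. The replicates of a gene lie close on both sides, with the albumin gene Alb far right of its tick and Mir707 far left of its own.

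All 32 listed genes for secreted plasma proteins were called above it, against 10.8% of all genes tested, with a median log2 departure of 7.98 against 0.29 over all genes. Their promoters were not uniformly weak, since 12 of the 32 lay in the top decile of promoter H3K27ac and 8 lay under the median. Apoe, a carrier of lipoprotein lipid, had 14670, 12583 and 12585 mRNA CPM at 172, 181 and 186 CPM of H3K27ac, which left a departure of 8.11 ± 0.12 even at 1 of the most acetylated promoters. All members of this list with a predicted level of at least 1 CPM, 25 genes, were also above the curve.

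Enzymes of urea formation and amino acid catabolism were placed likewise, with 24 of 26 above the curve and a median departure of 5.22. Of all genes tested, 10.8% were above. Gpt, the alanine aminotransferase of serum tests, had the most acetylated promoter of that list and was not called, with 314, 233 and 229 mRNA CPM at 170, 217 and 213 CPM of H3K27ac and a departure of 2.29 ± 0.13. Of the bile acid and xenobiotic enzymes, 20 of 23 were above the curve, with a median of 5.32, and 11 of the 23 promoters lay under the median of all genes. Cyp8b1, the sterol 12-alpha-hydroxylase of cholic acid synthesis, had 1204, 1148 and 973 mRNA CPM at 139, 144 and 157 CPM of H3K27ac, a departure of 4.82 ± 0.11.

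Genes of gluconeogenesis and fasting were above the curve in 13 of 20 cases, against 10.8% of all genes tested, with a median of 4.74. Cpt1a, which admits long-chain fatty acids to mitochondria, combined 1058, 1011 and 1009 mRNA CPM with 191, 208 and 187 CPM of H3K27ac and departed by 4.30 ± 0.08. Acute-phase genes were above it in 8 of 16 cases, led after Fgb by the iron hormone gene Hamp, which had 861, 939 and 987 mRNA CPM at 38.2, 30.2 and 30.1 CPM of H3K27ac and departed by 9.30 ± 0.13. Itih3, an inter-alpha-trypsin inhibitor chain with the most acetylated promoter of that list, departed by 4.88 ± 0.12. Lipid synthesis genes were above it in 6 of 20 cases, with a median of 0.87.

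The named lipid synthesis genes above the curve act in fatty acid desaturation and sterol sensing. Scd1, the stearoyl-CoA desaturase, had 1445, 1258 and 1059 mRNA CPM at 70.3, 57.8 and 55.0 CPM of H3K27ac and departed by 6.56 ± 0.15. Insig2, which retains the sterol sensor SCAP in the endoplasmic reticulum, departed by 7.04 ± 0.11 at 48.2, 39.9 and 46.7 CPM of H3K27ac.

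Transcription factor genes of the hepatocyte combined strong promoter acetylation with mRNA that mostly missed the 8-fold test. Of 22 hepatocyte transcription factors, 16 had promoters in the top decile, 5 were above the curve and none below, with a median departure of 1.69. The shares over all genes tested were 10.8% above and 12.8% below. Hnf4a, the nuclear receptor that maintains hepatocyte identity, had 1086, 1162 and 1143 mRNA CPM at 101, 107 and 113 CPM of H3K27ac and departed by 5.29 ± 0.09. Creb3l3, an endoplasmic reticulum-bound factor of fasting metabolism, departed by 7.19 ± 0.10 at 38.0, 40.8 and 45.3 CPM of H3K27ac. Rxra departed by 3.08 ± 0.08 and missed the 8-fold test, with an adjusted p of 0.222.

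Immediate-early genes, which are switched on within minutes of a stimulus and have unstable mRNA, mostly had less mRNA than predicted. Of 26 listed, 19 promoters were in the most acetylated 25 percent of all promoters. Of the 25 tested, 8 were below the curve, against 12.8% of all genes tested, none were above, and 22 had less mRNA than predicted, with a median departure of -2.30. Fos had 0.463, 1.36 and 1.31 mRNA CPM at 149, 152 and 150 CPM of H3K27ac, against 40.3 CPM predicted, a departure of -5.50 ± 0.21 (adjusted p = 1.13e-07). Ier3, an early response gene of growth factor and stress signalling, had 0.441, 0.730 and 0.732 mRNA CPM at 113, 96.4 and 109 CPM of H3K27ac and departed by -5.62 ± 0.15. Junb, another AP-1 subunit and the most acetylated of the list, had 12.4, 8.97 and 15.7 mRNA CPM against 50.2 predicted and was not called. Zfp36, which encodes an mRNA-destabilizing protein, had 100, 57.4 and 97.0 mRNA CPM, all above the 46.5 CPM predicted, and was not called.

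Clock genes straddled the curve, with 17 of 18 not called, against 10473 of all 13696 genes tested, and a median of -0.12. The exception, Bhlhe41, a repressor of CLOCK and BMAL1 activity, had 0.903, 0.261 and 0.784 mRNA CPM at 81.6, 103 and 103 CPM of H3K27ac and departed by -5.15 ± 0.21. Its relative Bhlhe40 had 26.8, 26.1 and 27.2 mRNA CPM against 44.1 predicted. Tef, a PAR-domain output factor of the clock, had the highest CPM of the list at 130, 105 and 114 and was not called.

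**Figure D4:**
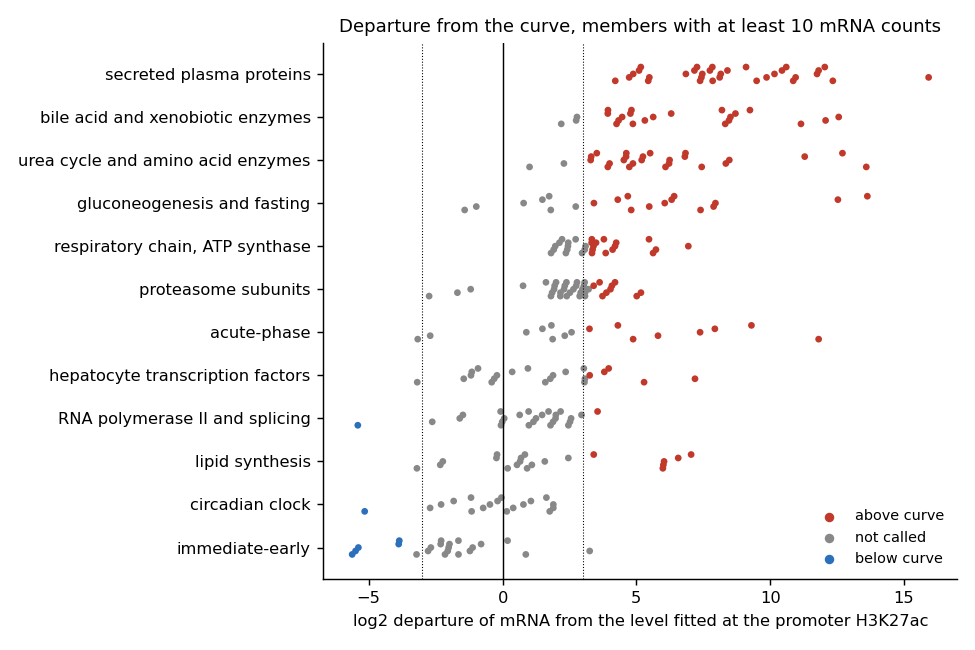
Log2 departure of mRNA from the level fitted at each gene's promoter H3K27ac in chow liver, for members of 12 gene lists with at least 10 mRNA counts, with dotted lines at an 8-fold departure. Secreted plasma proteins lie wholly to the right, led by Alb at 15.92, and immediate-early genes mostly to the left, with Ier3 at -5.62.

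Of 25 genes for RNA polymerase II subunits and splicing proteins, 23 were not called, with a median of 1.25. Over all 13696 genes tested, 10473 were not called. Hnrnpk had 216, 238 and 229 mRNA CPM at 137, 150 and 157 CPM of H3K27ac, a departure of 2.52 ± 0.08. Ddx5, an RNA helicase, departed by 3.55 ± 0.07 and was above the curve. Hnrnpa1, a splicing repressor, had 0.242, 0.470 and 0.418 mRNA CPM and was below it at -5.41 ± 0.22, a call that limma did not make (adjusted p = 0.613), and it has many near-identical copies, so its count is uncertain.

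Among respiratory chain and ATP synthase subunits, 15 of 28 were above the curve with a median of 3.33. Of all genes tested, 10.8% were above and 12.8% below. Atp5b, the catalytic beta subunit of ATP synthase, had 1365, 1322 and 1287 mRNA CPM at 100, 99.0 and 97.9 CPM of H3K27ac and departed by 5.62 ± 0.09. Cox7b, a small subunit of cytochrome c oxidase on the X chromosome, departed by 6.94 ± 0.09. Of 37 proteasome subunit genes tested, 9 were above the curve and none below, with a median of 2.75. Psmb10, a catalytic subunit of the immunoproteasome, had the most acetylated promoter of the proteasome list but 9.61, 9.03 and 10.04 mRNA CPM against 30.9 predicted, and was not called. Of 80 cytosolic ribosomal protein genes tested, 31 were above and 4 below, with a median of 2.89, and their many processed copies make single counts uncertain.

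Noncoding genes made up much of the class below the curve. Protein-coding genes were 97.1% of the genes above the curve, 60.6% of those below and 92.3% of all genes tested. Of 634 long noncoding RNA genes tested, 428 were below the curve and 13 above, against 12.8% and 10.8% of all genes tested. Of 147 microRNA genes tested, 140 were below, and of 55 small nucleolar RNA genes, 47 were below, with none of either above. Under 1 mRNA CPM lay 144 of the 147 and 50 of the 55. These were tested only because their predicted level reached 1 CPM, and could be called below only. A test of protein-coding genes alone left 1048 below and 1422 above.

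Mir707 had 0.0661, 0.261 and 0.105 mRNA CPM at 187, 200 and 194 CPM of promoter H3K27ac. The let-7 gene Mirlet7c-2, whose mature product is a tumour-suppressive microRNA, had 0.154, 0 and 0.261 mRNA CPM at 161, 206 and 216 CPM of H3K27ac. These were 10 and 12 counts over the 3 mRNA libraries, for departures of -8.68 ± 0.18 and -8.43 ± 0.26. Mir339, Mir425 and Mir345 departed by -8.31, -8.11 and -7.68, with 11 to 15 counts each. The spans of 109 of the 147 tested microRNA genes and of all 55 small nucleolar RNA genes overlap another RefSeq gene, so reads and promoters of host and small RNA cannot be told apart. Among small nucleolar RNA genes, which guide modification of ribosomal RNA, Snora7a departed by -7.60 ± 0.17 at 90.1, 90.5 and 88.9 CPM of H3K27ac.

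The protein-coding genes with the largest departures below the curve included Tnfsf13, the B cell survival factor APRIL, Eno1, the glycolytic enolase, and Prrt1, a membrane protein of AMPA receptor complexes. Eno1 had 0.110, 0.104 and 0.209 mRNA CPM at 119, 108 and 108 CPM of H3K27ac, against 30.1 CPM predicted, a departure of -7.78 ± 0.17. Eno1 has a near-identical copy in the mouse genome, so its count is uncertain. Tnfsf13 had 0.0881, 0.104 and 0.209 mRNA CPM at 108, 119 and 123 CPM of H3K27ac, and Prrt1 had 0.154, 0.209 and 0 mRNA CPM at 99.5, 111 and 97.3, and the spans of both overlap another gene. The noncoding or predicted genes 0610009L18Rik, 4930405A21Rik, 4933433G15Rik, 4933406I18Rik, A230028O05Rik, Gm17762 and the small RNA gene Scarna17 completed the 15 largest, at -7.75 to -7.95.

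Replication-dependent histone genes have mRNA that ends in a stem-loop in place of a poly(A) tail. They were below the curve in 14 of 24 tested cases and above it in 1, against 12.8% and 10.8% of all genes tested. Of the 68 listed, 8 reached 1 mRNA CPM. Most of the tested genes thus entered only because of their predicted level and could be called below only. Hist2h2be had 0.903, 2.71 and 1.41 mRNA CPM at 91.0, 91.3 and 96.0 CPM of H3K27ac, a departure of -4.07 ± 0.23 that neither limma (adjusted p = 0.637) nor DESeq2 (adjusted p = 0.137) called. Hist1h2bc went the other way, with 77.3, 88.7 and 73.1 mRNA CPM at 32.9, 30.2 and 28.2 CPM of H3K27ac and a departure of 6.10 ± 0.11. The linker histone gene Hist1h1c had 79.9, 83.3 and 88.2 mRNA CPM against 15.7 predicted, a departure of 2.43 ± 0.08 that missed the 8-fold test.

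No mRNA count at all was recorded for 308 of the genes below the curve. The highest promoter signal among them, and among all genes, belonged to A730008H23Rik at 269, 281 and 267 CPM, which with 6430706D22Rik is an older symbol of Hjurp, a chaperone of centromeric histone. Hjurp itself had 4.23, 2.97 and 2.51 mRNA CPM at 268, 279 and 265 CPM of H3K27ac and was below the curve, so these 3 rows describe 1 locus. Sco2, a copper chaperone of cytochrome c oxidase whose span overlaps another gene, had 0 counts at 159, 171 and 166 CPM of H3K27ac. A count of 0 over the 3 libraries, taken as at most 3 counts, puts Sco2 at least 1240-fold below its predicted level. The bounds for Mir3968 and 9530052E02Rik were 1386-fold and 1106-fold.

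Starts of other genes lay close to many promoters of the class below the curve. Among genes with a RefSeq start, another gene's start lay within 1000 bases for 116 of 1164 genes above the curve (9.97%), 363 of 1189 below it (30.5%) and 1427 of 8318 not called (17.2%). 0610009L18Rik, for example, had 0.242, 0.157 and 0.105 mRNA CPM at 158, 163 and 165 CPM of H3K27ac, with its start near that of the gamma-actin gene Actg1. Gene spans overlapped another RefSeq gene for 35.6% of genes above, 53.3% of genes below and 43.2% of genes not called. Without overlapping genes, 943 lay above the curve and 803 below among 7661 tested, and the part of neighbouring promoters in the calls was not tested beyond this.

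Promoter sequence, which the fit did not use, is given by class as a description, without a test. The CpG observed-to-expected ratio in the 300 bases around the start of protein-coding genes outside chromosome 18 had a median of 0.619 for genes above the curve, 0.630 for genes below it and 0.761 for genes not called. TATAAA was sought on the sense strand from 40 to 20 bases before the start of the same genes. It was present at 3.79% of promoters above the curve, 1.98% below it and 0.975% of those not called, against 1.38% over the 3 classes. In the whole RefSeq table, which holds genes of other types and untested genes, the share was 2.07%. Sequences were available for 80.5% to 82.5% of the genes of each class. Both called classes thus had a lower median ratio than genes not called, and the windows printed for Alb and Cyp2e1 belong to the CpG-poor end.

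Divided into 3 equal groups by that ratio, the CpG-poor promoters had the highest shares of called genes. Among tested genes, 22.3% of the CpG-poor group lay above the curve and 14.97% below, against 10.8% and 7.83% in the middle group and 7.81% and 6.23% in the CpG-rich group. Genes with a predicted level under 1 CPM could be called above only. Among those with at least 1 CPM predicted, 15.5% lay above and 22.1% below in the CpG-poor group, 8.38% and 8.72% in the middle group, and 6.78% and 6.49% in the CpG-rich group. Median promoter H3K27ac was 10 CPM in the CpG-poor group, 49.0 in the middle group and 67.0 in the CpG-rich group. Among genes with at least 100 mRNA CPM, it was 57.6 CPM in the 253 CpG-poor genes, 86.7 in the middle group and 86.3 in the CpG-rich group. Among genes with under 1 mRNA CPM it was 6.38, 16.2 and 21.1 CPM, so the median was lowest for CpG-poor promoters at both ends of the mRNA scale. The Spearman correlation was 0.695, 0.714 and 0.556 in the 3 groups, and 0.354, 0.424 and 0.333 among their genes with at least 1 mRNA CPM.

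**Figure D5:**
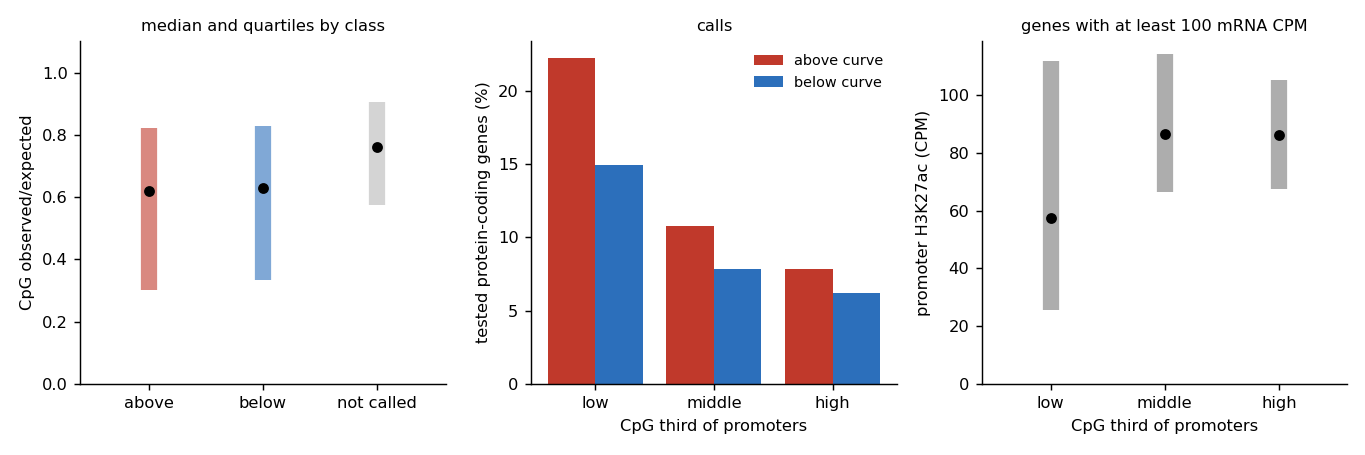
CpG observed-to-expected ratio of promoters (median and quartiles) by class, percentage of tested protein-coding genes called above or below the curve in CpG-poor (low), middle and CpG-rich (high) promoters, and promoter H3K27ac (median and quartiles) of genes with at least 100 mRNA CPM. The share above the curve is 22.3% in the CpG-poor group and 7.81% in the CpG-rich group.

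Markers of the less abundant liver cells were divided between genes above the curve and genes not called. Clec4f, a Kupffer cell lectin, had 54.6, 63.1 and 88.6 mRNA CPM at 18.4, 19.5 and 16.2 CPM of H3K27ac. Dcn, a proteoglycan of stellate cells, had 187, 198 and 200 mRNA CPM at 3.46, 3.82 and 4.67 CPM of H3K27ac. Above the curve were 4 of 7 Kupffer cell, 3 of 6 stellate cell, 5 of 6 sinusoidal endothelial and 1 of 4 tested cholangiocyte markers. The share over all genes tested was 10.8%. Most of these markers had a predicted level under 1 CPM and could be called above only. Among all 1522 tested genes with a predicted level under 1 CPM, 507 were above the curve. At a predicted level of at least 1 CPM, 7.95% of all genes tested were above. Among markers at such a level, 0 of 1 Kupffer cell and 1 of 1 stellate cell markers were above the curve. So were 2 of 3 sinusoidal endothelial and 0 of 1 cholangiocyte markers. That cholangiocyte marker, the transcription factor gene Sox9, had a promoter level of 101 CPM and a departure of -2.35 ± 0.12. The 9 tested acinar markers, 3 of them with a predicted level of at least 1 CPM, were above the curve but uneven between libraries, as for Ctrb1, a digestive protease precursor, with 383, 159 and 60.4 mRNA CPM in chow replicates 1 to 3. Of the erythroid markers, Alas2 was above the curve, and the 4 globin genes listed had 0 counts. Whether globin reads were left out of the counts was not tested, so these counts do not show that globin mRNA was absent.

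The same fit on the high-fat diet libraries, which the chow calls did not use, called 1479 genes above the curve (10.6% of 14000 tested) and 1746 below it (12.5%). Of the genes above, 1267 were shared, 85.7% of the high-fat diet list and 85.9% of the chow list. Of the genes below, 1487 were shared, 85.2% of the high-fat diet list and 85.1% of the chow list, and no gene called in chow had the opposite call. Alb departed by 16.08 in the high-fat diet libraries and 15.92 in chow, Fos by -4.17 and -5.50, and Cyp4a14 by 10.99 and 13.63. The Spearman correlation across genes was 0.747 in the high-fat diet libraries and 0.756 in chow, and differences between the diets were not tested.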

How the data were processed

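mRNA and H3K27ac ChIP libraries of chow liver were compared, with high-fat diet libraries as a repeat. Per the submitters' processing notes, mRNA reads were handled with TopHat 1.4.0 and HTSeq, ChIP reads with Bowtie 0.12.7 and bedtools, on mm9. The counts per gene and per promoter were used as deposited by the authors, who also deposited a normalized mRNA signal per gene, used here only as an alternative. The promoter width is not given in the sources used here, and promoter counts include ChIP background, since no control was subtracted.

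Counts were scaled with TMM within each assay (edgeR 4.0.16, R 4.3.3) and given as CPM. Genes needed 10 promoter counts over the 3 chow libraries. A lowess curve (span 0.3) of log2(CPM + 1) gave the predicted mRNA level, floored at 1 CPM. edgeR glmQLFit and glmTreat (fold 8) were run on the raw counts of both assays, with offsets that make the assay coefficient the log2 departure, over genes with a measured or predicted level of at least 1 CPM, a limit added to the planned design. limma 3.58.1 and DESeq2 1.42.0 were alternatives. The procedure was tested on simulated data with a fixed spread, and departures were planted only in genes predicted well over the 1 CPM floor. It recovered 90% of 100 departures of log2 4 and 100% of 100 departures of log2 6. Recovery for genes predicted at the floor was not tested. Standard errors were derived from each departure and its quasi-likelihood F statistic, with the curve taken as fixed. They include the spread between libraries but not the uncertainty of the curve, while bounds from 0 counts cover counting error only. Transcript lengths were not used here. Gene types, starts and sequences are RefSeq GRCm38.p6, matched for 22946 of 23167 genes by symbol.

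Members and gene lists were chosen with earlier results of these data known. Genes named are the 15 largest departures on each side (below with at least 10 mRNA counts), the 6 most acetylated promoters with 0 mRNA counts, and, per list, the highest in mRNA, the highest in promoter H3K27ac and up to 2 called members with the largest departure. Hjurp, Brd2, Zmiz1, Zmynd8, Tnrc18, Actg1 and the genes set apart by diet were named after their values were seen. Peak lists and the authors' comparison tables were not used. Some genes that the rule names are not reported here.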

Additional observations from a re-analysis of the deposited data

Results flagged for a closer look

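Of 344 members of the lists of up to 40 genes that were tested in both diets, 5 lay on opposite sides of the curve in all 9 library pairs of each diet, against 100 of 13500 genes overall (1.45% and 0.741%). The differences between diets were not tested. Thrsp, a regulator of lipogenesis, had 146, 236 and 211 mRNA CPM in high-fat diet livers and 6.37, 4.64 and 3.08 in chow livers, with log2 departures of 3.03 and -2.33. Lcn2, a siderophore-binding acute-phase protein, had 78.7, 66.0 and 77.0 mRNA CPM in high-fat diet livers and 2.29, 6.26 and 6.12 in chow livers, with departures of 0.76 and -2.71. The clock repressor genes Per2 and Per3 departed by 1.06 and 1.0 in high-fat diet livers and by -0.47 and -1.16 in chow livers. Bhlhe40 departed by 0.99 in high-fat diet livers and -0.73 in chow livers.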

How the results depend on the processing

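The Spearman correlation across genes moved to 0.533 with only genes of at least 10 mRNA counts, 0.769 with no promoter filter, 0.760 with the authors' deposited normalized signal and 0.386 with only genes of at least 1 mRNA CPM, a setting added after seeing the data. The Pearson correlation moved to 0.474, 0.640, 0.740 and 0.317 under the same settings, and to 0.701 with a pseudocount of 0.1. Leaving out each chow library in turn gave 0.744 to 0.755 and 0.646 to 0.651. Calls above the curve numbered 2718 at a fold of 4, and 943 without genes whose span overlaps another. Calls below it numbered 641 with limma, 899 with only genes of at least 10 mRNA counts, 1048 with protein-coding genes only and 803 without overlapping spans. The last 2 settings were added after seeing the data and, like the count filter, test fewer genes. limma worked on log2(CPM + 1), where departures of genes with little mRNA are smaller. Irx3 departed by -3.13 there and -5.74 in edgeR, and Hnrnpa1 by -3.41 and -5.41. The part of this scale in the lower limma count was not tested. Leaving out each library gave 1435 to 1485 genes above and 1707 to 1719 below. Deviations of same-numbered libraries had correlations of -0.0163, -0.018 and -0.0875, and those of other pairs lay between -0.0327 and 0.0581. With all of them this small, the check cannot show whether equal numbers are 1 animal, and the numbers were not used as pairs. A fit with a replicate block called 1449 genes above and 1721 below. Among 106 named genes, none of those called in the main fit changed direction under any setting that tested it. Changes of direction in named genes without a call were not counted. limma no longer called 7 of them and DESeq2 1. Scaling to length per kb was not run, so its effect on these results is not known. Every symbol had 1 promoter row, so no choice among promoter rows arose. Depth limits the weakest promoters, which needed 10 counts over 3 libraries.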

Other observations

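Gene families that other tissues use had weakly acetylated promoters in chow liver. Of 1101 olfactory receptor genes joined, with a median promoter level of 1.83 CPM, 2 were tested, and only because their mRNA reached 1 CPM at a predicted level under it, so they could be called above only. They were Olfr613 with 24.2, 21.7 and 26.6 mRNA CPM and Olfr1033 with 14.6, 12.4 and 11.97. limma did not call Olfr1033 (adjusted p = 1). Of 324 vomeronasal receptor genes, 2 were tested and neither was called. Hox genes, which pattern the body axis, had a median promoter level of 16.0 CPM, and none of the 7 tested of 39 was called by edgeR. Over all 13696 genes tested, 10473 were not called. Of 47 keratin genes 7 were tested, and the hepatocyte keratins Krt8 and Krt18 departed by 2.53 ± 0.09 and 2.29 ± 0.07 without a call.

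Of 30 developmental transcription factor genes, 4 reached 1 mRNA CPM and 7 were tested, and 3 of the tested genes were below the curve. Those tested under 1 mRNA CPM could be called below only. Irx3, a homeobox factor, had 0.220, 0.104 and 0.105 mRNA CPM at 52.5, 50.1 and 57.5 CPM of H3K27ac, a call that limma did not make (adjusted p = 1). Gata4, a factor of endoderm and heart, had 16.5, 19.2 and 15.2 mRNA CPM at 115, 124 and 133 CPM of H3K27ac and was not called. Of 318 tested Zfp zinc finger genes, 11 were above the curve and 21 below, shares under those of all genes tested (10.8% and 12.8%), with a median departure of -0.58. Zfp13 departed by -5.64 ± 0.16 at 82.9, 76.5 and 75.5 CPM of H3K27ac, and Zfp488 by 5.61 ± 0.11 at 9.45, 8.92 and 7.72 CPM.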
